A study of Nannospalax ehrenbergi and Mus musculus with 25 samples.

Results

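Uncoupling proteins are carriers of the inner mitochondrial membrane. UCP1, the carrier of brown fat, lets protons leak back into the mitochondrial matrix so that the energy of fuel oxidation is released as heat. UCP2 is made in many tissues, leukocytes among them, and UCP3 mainly in skeletal muscle; neither is regarded as a main source of heat. Brown fat switches heat production on when noradrenaline reaches the β3-adrenergic receptor, and its cells carry a characteristic set of further genes that act in lipid droplets, thyroid hormone activation and transcription.

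The genes examined here are 10 in number and were chosen by name, with the Ucp1 values of the mouse and Spalax muscle libraries already known: Ucp1, Ucp2, Ucp3, Cidea, Dio2, Elovl3, Prdm16, Ppargc1a, Adrb3 and Kcnk3. Their rows were read in both deposited count tables. The mouse table lists all 10 among 47593 genes and the Spalax table lists 9 among 27988; Adrb3 of Spalax was not analysed here. Because Ucp1 levels chose the set, its differences between mouse control and uninjected muscle, and between the species, are given as descriptions with no test.

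RNA-seq was carried out on neck tissue of the blind mole rat Spalax and of mice, in 25 libraries in all. The treated animals had received the carcinogen 3-methylcholanthrene (3MCA) once under the skin of the left side of the neck, 1 mg in 500 µl for Spalax and 200 µg in 200 µl for mice. The Spalax groups were untreated control muscle (n = 4, all female), tolerant animals that grew no tumor (n = 4), and tumor-bearing animals. The tolerant animals are listed as sampled at the injected side, 18 months (animals 2251 and 2261) or 30 months (2218 and 2375) after treatment. The tumor-bearing animals were sampled at both sides of the neck, 2 with a granuloma (600 at 14 months, 976 at 16 months) and 2 with a fibrosarcoma (2240 at 18 months, 2230 at 30 months). The injected side (IS) of a tumor-bearing animal is the tumor itself, and the uninjected side (UIS) is the opposite neck muscle. The mouse groups, all male and 3 to 4 months old, were untreated control muscle (M1, M2 and M5) and the UIS and IS of 3 animals with a fibrosarcoma (1019 at 14 weeks, 1023 at 12 weeks, 512 at 11 weeks). The Spalax were caught in the field. Ages of the treated animals were estimated to span from 2 to more than 10 years, which was not tied to single animals. A span of 2 to 10 years is recorded for the controls as well. Of the tolerant animals 3 of 4 were male, and of the tumor-bearing Spalax 2230 was male and the other 3 female, so sex and group are partly confounded when either is set against the female controls. The paper's list of animals places the tolerant samples at the injected side, while other passages of it speak of tumor-negative UIS. The side of the tolerant samples is therefore not certain, and the controls came from untreated neck. The tumor-bearing animals carried another type of library index than controls and tolerant animals. Index and group therefore cannot be told apart when UIS is set against control.

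Values are the deposited normalised counts, that is reads per gene divided by 1 factor per library. Libraries held 17025447 to 23386729 reads in genes in Spalax and 22143060 to 31179183 in mouse. A gene with no read allows up to 3 reads, a normalised count of 1.80 to 4.27 in Spalax and 1.55 to 4.32 in mouse, by counting error alone. Skeletal muscle markers (10 listed, 7 found in the Spalax table) summed to between 689629 and 2787568 in the 12 Spalax libraries that are not tumors and to between 1126010 and 4163951 in the 6 such mouse libraries, but to no more than 2589 in the Spalax tumors and to 98.7 to 57453 in the mouse tumors. Tumor libraries were therefore poor in muscle RNA. Some muscle libraries stood apart. Tolerant 2251 had a leukocyte marker sum of 17033 (other tolerant and control animals 747 to 3731). Granuloma UIS 976 and tolerant 2251 were low in muscle markers (689629 and 751836), and mouse UIS 512 was low in fat markers.

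The 3 uncoupling protein genes are related, and the first question is whether reads of one can be taken for another. In mouse (GRCm38, GENCODE vM21) Ucp1 lies on chromosome 8, at chr8:83290352-83298452 on the plus strand. Ucp3, at chr7:100472990-100486432, and Ucp2, at chr7:100493337-100502020, are neighbours on the same strand of chromosome 7. Over the aligned coding bases, Ucp2 and Ucp3 were 75.5% identical, Ucp1 and Ucp3 64.9%, and Ucp1 and Ucp2 63.6%. The longest run of identical bases was 24 between Ucp2 and Ucp3 and 17 between Ucp1 and either of them, and no window of 50 coding bases was shared by any pair. The stretch around the longest run shared by Ucp2 and Ucp3 is shown because no longer run is shared by any pair. Capitals mark the 37 of 60 bases that are the same in all 3 genes, and 48 are the same in Ucp2 and Ucp3. The bases are coding positions 532 to 591 of Ucp1, 538 to 597 of Ucp2 and 535 to 594 of Ucp3, counted from the first base of the start codon.
Ucp1: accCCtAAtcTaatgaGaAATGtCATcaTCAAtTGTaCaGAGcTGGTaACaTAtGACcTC
Ucp2: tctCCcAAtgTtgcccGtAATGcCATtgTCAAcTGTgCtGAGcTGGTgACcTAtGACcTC
Ucp3: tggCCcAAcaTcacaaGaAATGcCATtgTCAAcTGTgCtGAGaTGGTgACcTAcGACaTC
A read of 101 bases covering this stretch would cross every position where the genes differ in it. No Spalax coding sequence was used here.

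Ucp1 ran from 0 to 45978 normalised counts. In the 3 mouse controls it stood at 45978 (M1), 24005 (M2) and 42398 (M5) normalised counts, a mean of 37460 ± 11789 (SD, n = 3). In the UIS muscle of the tumor-bearing mice it stood at 13180 (1019), 2217 (1023) and 0 (512). All UIS values lay below all control values. The tumors held 2.07, 0 and 1.58 in the same order of animals, which is at most 4 reads.

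In Spalax, Ucp1 was close to 0 in 15 of 16 libraries. The 4 controls had 0 or 1 read each, and tolerant 2261 had the most of the 15 libraries, 6 reads or a normalised count of 6.57. Over these 15 libraries there were 17 Ucp1 reads in all, and 7 libraries had no read. The exception was the UIS muscle of fibrosarcoma animal 2230, with 9144 reads or a normalised count of 13000. The UIS muscle of the other fibrosarcoma animal, 2240, had 2.43, and both fibrosarcomas had 0. The group mean of fibrosarcoma UIS, 6501 ± 9190 (SD, n = 2), therefore rests on a single library. As CPM, reads per 1000000 reads in genes, Ucp1 had 537 in UIS of 2230, against 492 in UIS of mouse 1019 and 909 to 2097 in the mouse controls; the species were counted on different gene models, so these are set side by side without a test.

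**Figure D1:**
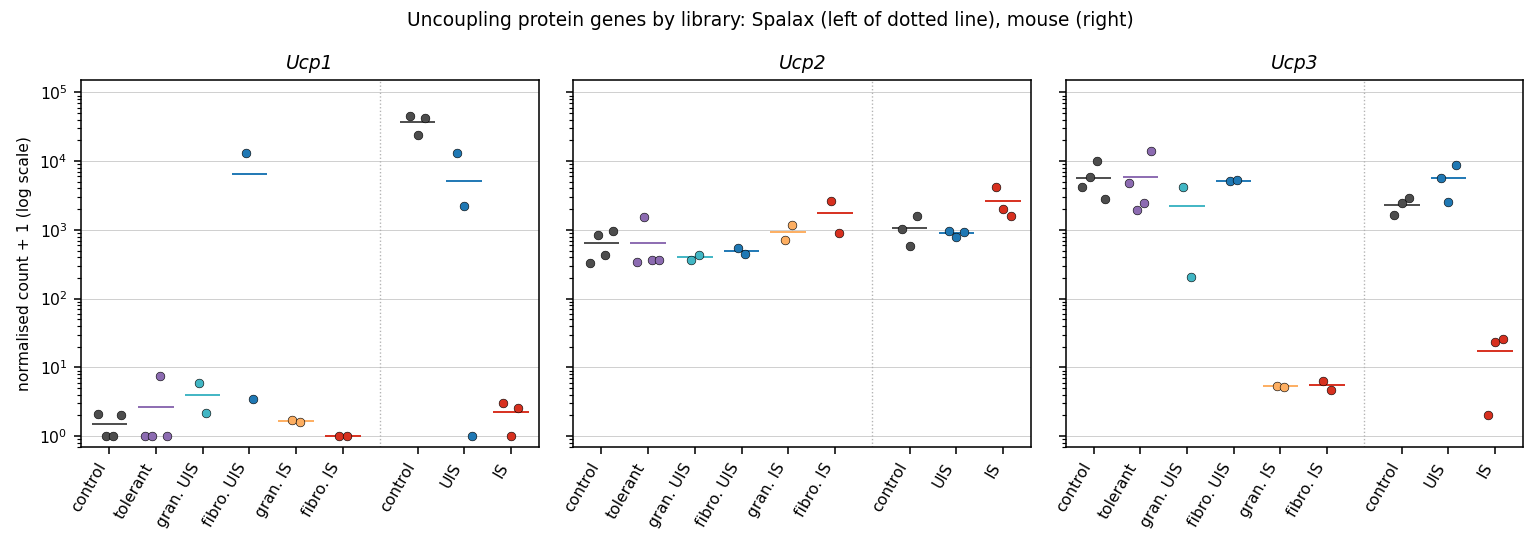
Normalised count plus 1 (log scale) of Ucp1, Ucp2 and Ucp3, 1 point per library, by group, with Spalax left and mouse right of the dotted line; horizontal bars are group means. Ucp1 is at 24005 to 45978 in mouse control muscle, at 13180, 2217 and 0 in mouse UIS and at 13000 in 1 Spalax library, Ucp2 is present in every library, and Ucp3 is at 25.3 or less in all tumors.

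Ucp2 was present in all 25 libraries and rose in the mouse tumors. In mice it stood at 976, 791 and 930 in UIS and at 4203, 2004 and 1609 in the tumors of the same animals (1019, 1023 and 512). Each tumor exceeded every UIS library, and the log2 change was 1.41 (SE 0.38, limma adjusted p = 0.0243). The call was lost without UIS 1019 (limma adjusted p = 0.0503), UIS 1023 (0.0778) or tumor 1023 (0.056). In Spalax fibrosarcoma animals it was 542 (2230) and 451 (2240) in UIS and 2633 and 897 in IS, a log2 change of 1.64 (SE 0.57) whose limma adjusted p of 0.085 missed the threshold of 0.05. In the granuloma animals it was 368 (600) and 426 (976) in UIS and 707 and 1159 in IS, a log2 change of 1.19 (SE 0.41, limma adjusted p = 0.0871). Neither Spalax comparison passed the test. The tumors and UIS libraries did not overlap in either tumor type, which carries little weight with 2 libraries per group. The share of all genes without overlap between tumor and UIS is not given here for either species. With the animal as a block the Spalax fibrosarcoma comparison passed (limma adjusted p = 0.0396) and the granuloma comparison did not (0.105). Leukocyte markers moved with it: their sum was 7296 to 52747 in mouse tumors against 813 to 8002 in mouse UIS, and 8087 to 21464 in Spalax tumors against 1078 to 2950 in Spalax UIS. Their part in the Ucp2 difference was not tested. In bulk tissue, more or fewer cells of a type and more or less RNA per cell cannot be told apart. Outside the tumors, tolerant 2251, the library with the high leukocyte marker sum, also had the highest Ucp2 of the Spalax muscle libraries (1542). The other 3 tolerant libraries were at 337, 368 and 359, and the 4 controls ranged from 329 to 955.

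Ucp3 was present in every muscle library and near 0 in every tumor. It stood at 1659, 2461 and 2887 in the mouse controls (M1, M2, M5), at 5752, 2518 and 8815 in UIS (1019, 1023, 512) and at 1.03, 22.5 and 25.3 in the tumors. The log2 change of tumor against UIS was -8.87 (SE 1.06, limma adjusted p = 0.00238). Spalax controls held 4198 (1042), 5823 (1075), 10020 (2095) and 2830 (6038), and tolerant animals held 4759 (2218), 1917 (2251), 2499 (2261) and 13998 (2375). In the fibrosarcoma animals UIS was at 5064 and 5244 and the tumor at 5.40 and 3.69 (2230 and 2240), a log2 change of -9.88 (SE 0.36, limma adjusted p = 0.000804). In the granuloma animals UIS was at 4175 (600) and 207 (976) and the granuloma at 4.36 and 4.23, a log2 change of -7.46 (SE 1.45, limma adjusted p = 0.0231). The low value of UIS 976 was in the library with the lowest muscle marker sum of all Spalax muscle libraries (689629). Tolerant 2251 had a sum of 751836 and held Ucp3 at 1917. The part of muscle content in the low value was not tested.

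The brown fat effector genes of the set were abundant in the mouse control muscle libraries and scarce in Spalax muscle, apart from UIS of 2230. The species were normalised separately on different gene models. White and common fat markers summed to 246911 to 451818 in mouse controls and to 11388 to 30667 in Spalax controls. The part of fat content in the species difference was not tested. Cidea, whose protein sits on lipid droplets and promotes their fusion, stood at 10498, 10920 and 12128 in the mouse controls. It was 6049 (1019) and 10275 (1023) in mouse UIS but 13.0 in UIS 512, and 0, 2.97 and 6.84 in the tumors. The mouse tumors were lower than UIS by a log2 change of -8.24 (SE 2.50, limma adjusted p = 0.0359), and the UIS library of 512 lay near the tumors. The call held without UIS 512 and was lost without any other of the 6 libraries, with limma adjusted p between 0.0561 and 0.103. In Spalax, Cidea was 19.8 to 91.1 in the controls and 11.3 to 64.8 in tolerant animals. UIS of 2230, the library with Ucp1, held 5053, while the other 3 UIS libraries held 8.24 to 19.4. The fibrosarcomas held 0 (2230) and 0.61 (2240). Their difference from UIS, a log2 change of -7.98 (SE 2.70), had a limma adjusted p of 0.0803, or 0.0405 with the animal as a block. In 4 of the 5 libraries with at least 100 Ucp1 reads in mouse, there were 0.228 to 0.459 Cidea reads for each Ucp1 read, against 0.389 in UIS of Spalax 2230. The exception, mouse UIS 1023, had 4.63.

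Elovl3, an enzyme that lengthens very long chain fatty acids and is used as a brown fat marker, was 1348, 240 and 301 in mouse controls (M1, M2, M5), 238, 27.9 and 4.32 in UIS (1019, 1023, 512) and 0 to 6.32 in mouse tumors. The Spalax table held 3 Elovl3 reads over all 16 libraries, and 13 libraries had none. UIS of 2230 had 0 Elovl3 reads beside its 9144 Ucp1 reads, whereas the mouse libraries with Ucp1 had 7.11 to 29.3 Elovl3 reads per 1000 Ucp1 reads. No Spalax library had more than 1 Elovl3 read, so no difference between Spalax groups could be detected. The reason for the nearly empty row was not tested.

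Kcnk3, which encodes a two-pore potassium channel found in brown fat and other tissues, stood at 3253, 780 and 2332 in mouse controls, at 1336, 2011 and 46.1 in UIS and at 7.24, 1298 and 1.58 in the tumors. Groups overlapped through tumor 1023, and the difference did not pass (limma adjusted p = 0.232). In Spalax it was 18.8 to 138 in controls, and its highest value was again UIS of 2230 (375), with 13.3 in UIS of 2240 and 0.60 and 0 in their tumors. That log2 change of -5.86 (SE 1.66) had a limma adjusted p of 0.0534, or 0.0205 with the animal as a block. Adrb3, the β3-adrenergic receptor through which noradrenaline acts on fat cells, was 1065, 826 and 883 in mouse controls and 254, 328 and 11.5 in mouse UIS. All UIS values lay below all controls. It was 3.10, 1.19 and 1.58 in the tumors, a log2 change against UIS of -5.16 (SE 1.26, limma adjusted p = 0.018). This call was lost without UIS 1023 (limma adjusted p = 0.0558) or tumor 1023 (0.0609). Of the Adrb3 exon bases, 24.9% lie under a predicted gene on the other strand, and the strand setting of the counting is not given in the sources used here.

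**Figure D2:**
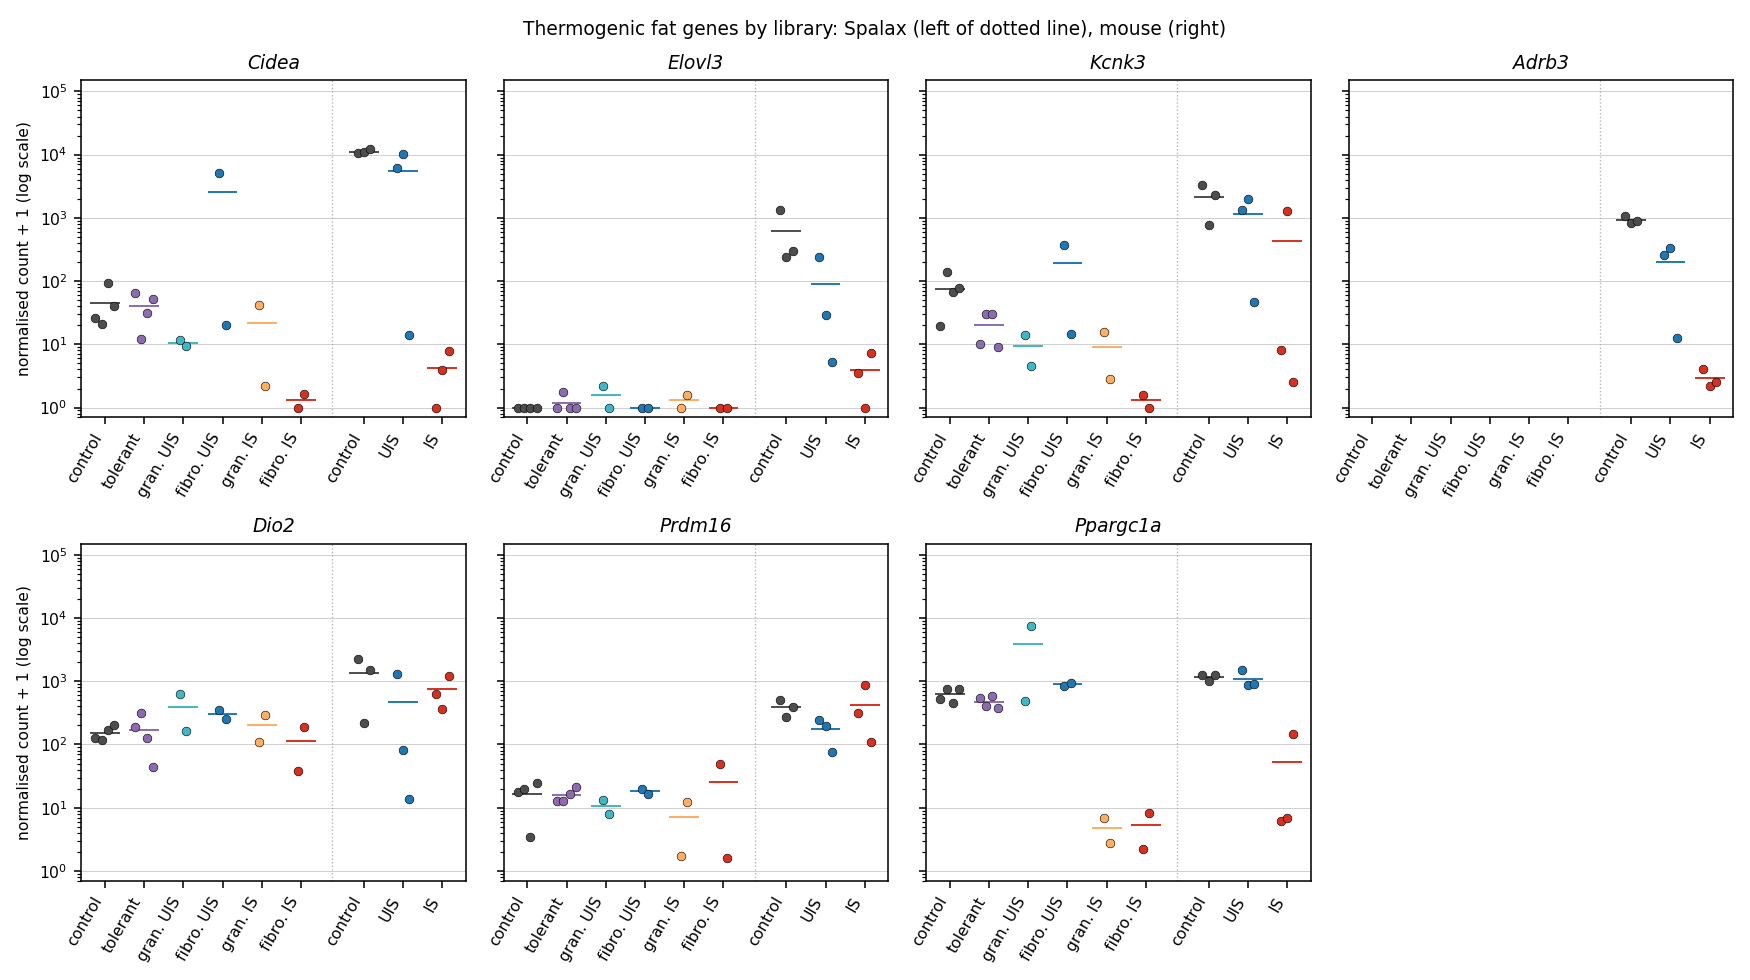
Normalised count plus 1 (log scale) of the 7 other genes, 1 point per library, by group, with Spalax left and mouse right of the dotted line; horizontal bars are group means, and Adrb3 is shown for mouse only. Cidea reaches 5053 in 1 Spalax UIS library, Elovl3 stays at 1.21 or less in every Spalax library, and Ppargc1a is at 7.38 or less in all 4 Spalax tumors.

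The regulators and the hormone-activating enzyme moved less uniformly. Ppargc1a encodes the coactivator PGC-1α, which drives mitochondrial genes in both brown fat and muscle. It was 1238, 1003 and 1243 in mouse controls, 1498, 863 and 907 in UIS and 5.17, 5.93 and 145 in the tumors, a log2 change of tumor against UIS of -5.84 (SE 1.22, limma adjusted p = 0.0107). In Spalax controls it was 458 to 765 and in tolerant animals 373 to 585. UIS of the fibrosarcoma animals was at 852 (2230) and 933 (2240) and their tumors at 1.20 and 7.38 (log2 change -7.70, SE 0.77, limma adjusted p = 0.00558). UIS of the granuloma animals was at 488 (600) and 7355 (976) and their granulomas at 5.81 and 1.81 (log2 change -8.76, SE 1.37, limma adjusted p = 0.0149). The value of UIS 976 was the highest of the 16 Spalax libraries, in the library where Ucp3 was lowest among Spalax muscle. Slc25a27, which encodes a further UCP-like carrier and was picked out after its values were seen, was also high there, at 2764 against 89.0 to 185 in the other 11 Spalax libraries that are not tumors.

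Prdm16, a transcription factor of brown fat identity, was 508, 273 and 389 in mouse controls, 244, 198 and 76.3 in UIS and 311, 863 and 110 in the tumors. The mouse UIS values lay below all controls, while tumors and UIS overlapped and the difference did not pass the test (limma adjusted p = 0.353). In Spalax no library exceeded 48.6, the value of fibrosarcoma 2230, and UIS of 2230, the library with Ucp1, was at 18.5 within the control range of 2.50 to 23.9. Dio2, the deiodinase that turns thyroxine into active thyroid hormone inside the cell, was 2282, 215 and 1526 in mouse controls, 1319, 81.5 and 13.0 in UIS and 625, 367 and 1230 in the tumors. These groups overlapped, and tumor against UIS did not pass (limma adjusted p = 0.226). In Spalax Dio2 was 115 to 205 in controls, 42.9 to 313 in tolerant animals, 160 to 636 in UIS of tumor-bearing animals and 37.2 to 292 in tumors.

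In CPM per kb of annotated exon, the order of the 10 genes in mouse control muscle began with Ucp1 (1003 ± 391, SD, n = 3) and Cidea (431 ± 60.5). Both stood above every other member in each of the 3 libraries. Then came Ucp3 (31.8 ± 8.95), Kcnk3 (23.7 ± 15.1), Elovl3 (14.2 ± 14.7), Adrb3 (11.8 ± 2.56), Dio2 (10.4 ± 8.35), Ppargc1a (7.62 ± 1.61) and Ucp2 (6.68 ± 3.47), and from Ucp3 on each gene's range overlapped that of its neighbour in this order. Prdm16 had the lowest mean (1.83 ± 0.69), below every Ucp2 value but within the range of Dio2. Exon lengths join all annotated transcripts, which lowers the value of a gene with long rare transcripts such as Ucp2 (6989 bases) relative to Ucp1 (1636 bases).

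Tumor was set against uninjected muscle across all genes with limma. In mice, 22.3% of 15220 genes were called lower and 22.8% higher at an adjusted p of at most 0.05. Of the 10 members, 8 were tested, since Ucp1 and Elovl3 fell under the filter of a value of 10 in at least 3 libraries; 4 were called lower (Ucp3, Cidea, Ppargc1a and Adrb3) and 1 higher (Ucp2), with a median log2 change of -4.61 against 0.11 over all genes tested. In the Spalax fibrosarcoma animals, 19% of 14696 genes were called lower and 17.4% higher. Of the 7 members tested 2 were called lower (Ucp3 and Ppargc1a; median log2 change -5.86 against 0.03 over all genes), and 5 were called with the animal as a block, where 33.2% of all genes were called in either direction (DESeq2 also called 5, with 43.3% of all genes). In the granuloma animals, 12.6% of 14735 genes were called lower and 11.7% higher, and again Ucp3 and Ppargc1a were the members called lower of 7 tested (median -0.84 against -0.01). With 1 UIS library of the fibrosarcoma animals left out, whichever it was, 0 members and 0 of all 14696 genes were called. With 1 IS library left out 4 members were called, among 8397 (without 2240) or 8290 (without 2230) of all genes. In the granuloma animals 0 members were called with either IS library left out, and 98 (without 976) or 224 (without 600) of all genes were. In mice the members called fell from 5 to 2 without UIS 1023 (4625 of all genes called) and to 3 without tumor 1023 (4238), while Ucp3 and Ppargc1a stayed called whichever mouse library was left out. The skeletal muscle markers fell with them, with 9 of 10 called lower in mice, 7 of 7 in Spalax fibrosarcoma and 6 of 7 in granuloma, and their part was not tested. Scaled by total reads, the split moved to 11% lower and 49.7% higher in mice, 11.3% and 35.2% in Spalax fibrosarcoma, and 7.64% and 22.9% in granuloma. The median change then shifted by 1.06, 0.80 and 0.73 on the log2 scale, and Ucp2 was called higher in all 3 comparisons with the other calls kept in direction.

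**Figure D3:**
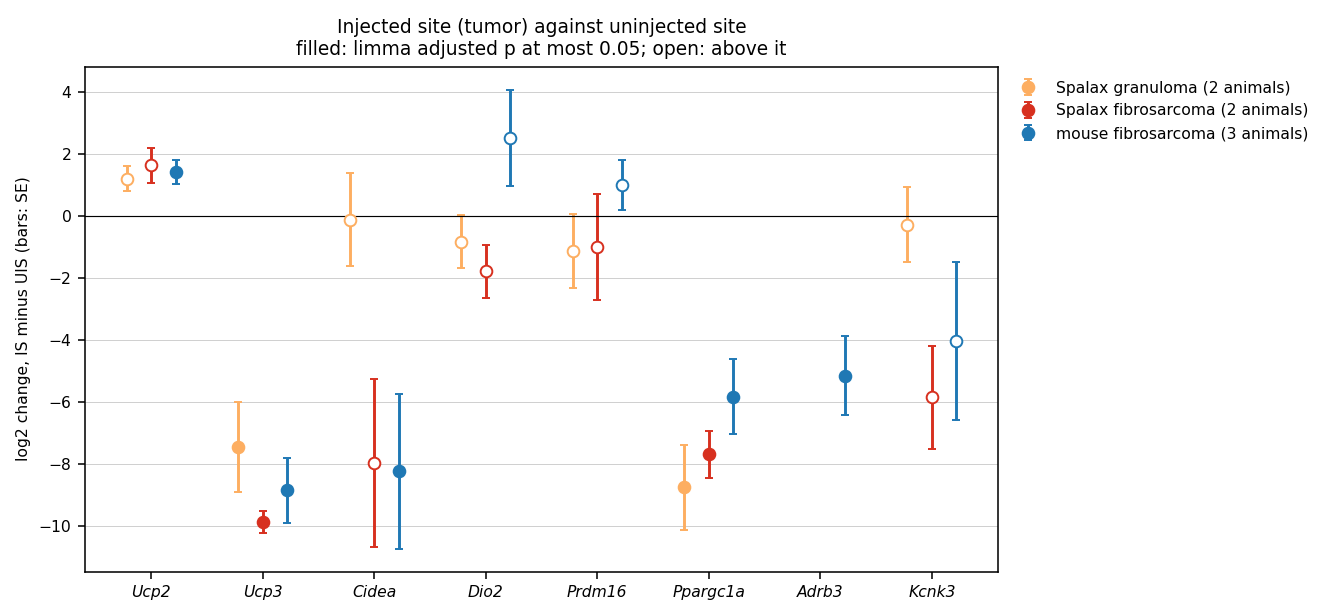
Log2 change of tumor (IS) minus uninjected muscle (UIS) on the log2(normalised count + 1) scale for each member tested, with standard errors, in 2 Spalax granuloma, 2 Spalax fibrosarcoma and 3 mouse fibrosarcoma animals; filled points passed limma at an adjusted p of at most 0.05. Ucp3 and Ppargc1a are filled and below 0 in all 3 comparisons, and Ucp2 lies above 0 in all 3 but is filled in mouse alone.

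The size of the tumor difference was also compared between tumors. Between fibrosarcoma and granuloma in Spalax, 0% of 15584 genes were called by limma and 4.92% had an unadjusted p under 0.05. Kcnk3 was the only member under it, with a difference in log2 change of -5.58 (SE 2.29, limma adjusted p = 0.946). edgeR also called 0 genes, with 833 at an unadjusted p under 0.05, while DESeq2 called 88 with Cidea among them. Between Spalax fibrosarcoma and mouse fibrosarcoma, 3.95% of 11085 genes with a shared symbol were called and none of the 7 members tested. With the animal as a block 38 of these genes were called, in place of 438. Among the wider lists, 2 of the 5 UCP-like carriers were called, with changes more negative in Spalax: Slc25a4 (difference -2.94, SE 0.54, limma adjusted p = 0.0287) and Slc25a30 (-3.53, SE 0.76, limma adjusted p = 0.0412). Slc25a30 had log2 changes of opposite sign, 2.15 in mouse and -1.39 in Spalax fibrosarcoma, of which the second did not pass. Also more negative in Spalax was the change of the calcium pump regulator Sln (-11.6, SE 2.42, limma adjusted p = 0.0387). Sln had far lower normalised counts in mouse controls than in Spalax controls, as given below, although the species were normalised separately on different gene models. The skeletal muscle markers had a median difference of -5.46 in this comparison, with 0 of 7 tested called. Their part in the differences of Slc25a4 and Sln was not tested. The change of Cfd, a complement protease secreted by fat, was more negative in mouse (8.79, SE 1.06, limma adjusted p = 0.00823).

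Uninjected muscle of the 4 tumor-bearing Spalax animals was set against the 4 controls. Ucp1 was left out of this test by plan. Ucp1 and Elovl3 also fell under the filter on low values in every Spalax comparison. limma called 0% of 13909 genes, with 16.6% at an unadjusted p under 0.05. edgeR called 0, with 2495 at an unadjusted p under 0.05, and DESeq2 called 516, none of them a member. Dio2 was the only member of 7 tested that was under 0.05 before adjustment. Dio2 was 636 (600), 160 (976), 345 (2230) and 251 (2240) in UIS and 125, 115, 168 and 205 in the controls (1042, 1075, 2095, 6038), a log2 change of 1.03 (SE 0.40, limma adjusted p = 0.26), and the groups overlapped through animal 976. Tolerant muscle against control gave 0% of 14020 genes called, with 5.23% at an unadjusted p under 0.05. edgeR called 0, with 851 at an unadjusted p under 0.05, and DESeq2 called 60. Kcnk3, again the only member of 7 under 0.05 before adjustment, was 9.26 (2218), 29.3 (2251), 29.6 (2261) and 8.04 (2375) in tolerant animals and 18.8, 138, 66.1 and 77.6 in controls. That log2 change of -1.85 (SE 0.67) had a limma adjusted p of 0.895, and control 1042 lay within the tolerant range.

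Mouse UIS against mouse control was described by whether the 3 libraries of each group overlapped. Over 14792 genes with a value of at least 10 in 3 libraries, UIS lay wholly below control in 11.7% and wholly above it in 9.53%. Of the 10 members 5 lay wholly below (Ucp1, Cidea, Elovl3, Prdm16 and Adrb3) and 0 wholly above. The Ucp1 levels of these libraries were known when the genes were chosen, so Ucp1 adds nothing to this count. The gap was small for Elovl3 (240 against 238), Cidea (10498 against 10275) and Prdm16 (273 against 244). Fat markers moved the same way. Of 12 white and common fat markers 7 lay wholly below, among them Lep, Fabp4 and Pparg, and their sum was 246911 to 451818 in controls and 144340 (1019), 208839 (1023) and 29030 (512) in UIS, with none of the 12 at 0 reads in any of these libraries. Of the 22 brown fat genes passing the filter of 25 listed, 6 lay wholly below, namely Slc27a2, Acot11, Otop1, S100b, Letmd1 and Aspg. The part of fat content in the member differences was not tested. Library 512 was the lowest UIS library for 7 of the 10 members, and its myosin genes also stood apart: the fast myosin Myh4 was at 2051173 against 212559 to 691217 in the other 5 muscle libraries, and the slow myosin Myh7 at 654 against 4325 to 10782. Ucp3 was highest in this library. The other UIS libraries held Ucp1 at 2217 and 13180 against at least 24005 in controls, values that were known when the genes were chosen.

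**Figure D4:**
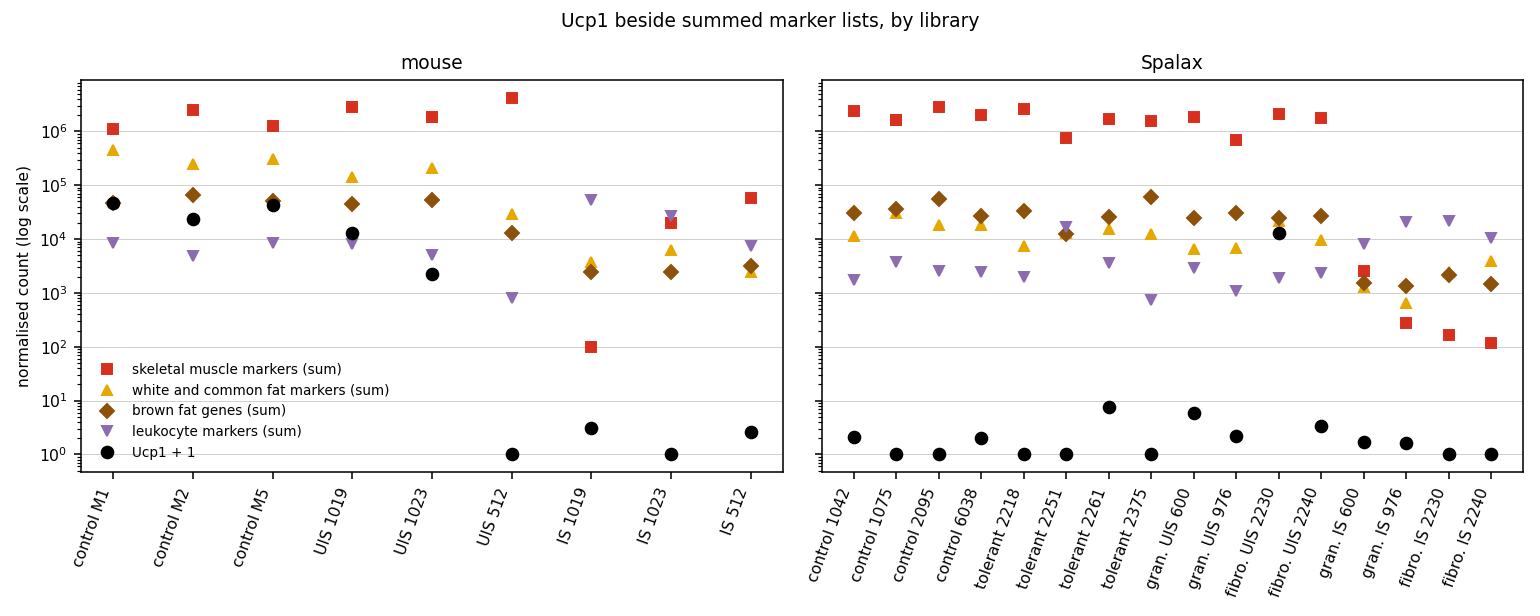
Ucp1 (normalised count plus 1, black) beside the summed normalised counts of skeletal muscle, white and common fat, brown fat and leukocyte lists in each library, mouse left and Spalax right, on a log scale. Mouse UIS 512 is low in Ucp1 and in the fat sum (29030). Spalax UIS 2230 carries Ucp1 at 13000 with a fat sum of 22108, inside the control range of 11388 to 30667. That sum is above the 9686 of the other Spalax fibrosarcoma UIS, granuloma UIS (6676 to 6947) and tolerant animals (7533 to 15215).

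The Spalax library with Ucp1, UIS of 2230, was then described across the wider lists, an examination chosen after its value was seen. Of 16120 genes with a value of at least 10 in any of the 12 Spalax libraries that are not tumors, 3.62% were highest in this library and 18 genes (0.112%) were at least 5 times the next highest. Ucp1, Thrsp, Cidea and Pck1 had the 4 highest levels among the 18. Thrsp, a thyroid hormone responsive gene of fat synthesis, was at 7937 with 1391 as the next highest, and Pck1, the key enzyme of glyceride and glucose formation from small precursors, was at 1682 against 283. Of the 8 members reaching 10, Ucp1, Cidea and Kcnk3 were highest here. Of the 16 brown fat genes reaching 10, 4 were highest here: Otop1 (58.3 against 12.9 for the next), Ffar4 (29.9 against 11.3), Slc27a2 (21.3 against 8.99) and Letmd1 (580 against 471). Ucp1 (6.57 for the next) and Slc27a2 reached 10 in this library alone, so the filter fixed their place as highest. Ucp1 had also chosen the library, so these 2 genes add nothing to the counts. Of 15 β-adrenergic and lipolysis genes 4 were, among them Prkar2b, a regulatory subunit of protein kinase A (3145 against 852), and the β1-adrenergic receptor Adrb1 (58.3 against 26.3). Of the 11 white and common fat markers 3 (27.3%, beside 25% of the brown fat genes) were highest here: Pparg, the master regulator of fat cells (488 against 232), Cebpa (1022 against 686) and Dgat2 (2383 against 1906). Adipoq (1346) and Fabp4 (13064) lay inside the control range, and no gene of either list was at 5 times the next highest. The white and common fat sum was 22108, inside the control range of 11388 to 30667. It was 9686 in the other fibrosarcoma UIS, 6676 to 6947 in granuloma UIS and 7533 to 15215 in tolerant animals. The part of fat content in the Ucp1 level of this library was not tested. Of the 5 UCP-like carriers 2 were highest here, Slc25a5 (1851 against 1510) and Slc25a30 (205 against 162). No skeletal muscle, leukocyte or vascular marker was highest in this library, and its muscle marker sum (2129592) was inside the control range. The tumor of the same animal held 0 reads of Ucp1, Cidea and Elovl3.

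Other genes of the pathways were read from lists, and each count stands beside the share of all genes called lower (22.3% in mouse, 19% in Spalax fibrosarcoma and 12.6% in granuloma) or higher (22.8%, 17.4% and 11.7%). Of the brown fat genes, 12 of 19 tested fell in mouse tumors, 6 of 15 in Spalax fibrosarcomas and 7 of 13 in granulomas, with median log2 changes of -3.88, -2.56 and -2.99. Those with the largest changes included Plin5, a lipid droplet protein (log2 change -8.19, SE 0.65 in mouse, limma adjusted p = 0.00108), and Fabp3, a fatty acid carrier (-8.31, SE 1.69, limma adjusted p = 0.00999), both of which muscle expresses as well. Lhx8, a transcription factor, rose in both Spalax tumor types (5.24, SE 0.45 in fibrosarcoma and 7.32, SE 0.82 in granuloma, limma adjusted p = 0.00438 and 0.00835). Of the β-adrenergic and lipolysis genes, 7 of 16 fell in mouse, 6 of 14 in Spalax fibrosarcoma and 5 of 13 in granuloma, and 1 rose in each. The lipases Pnpla2, Lipe and Mgll fell in all 3 comparisons, and Prkar2b rose in granuloma (2.88, SE 0.68, limma adjusted p = 0.0366). Of the thyroid hormone genes, 4 of 5 fell in mouse, 4 of 6 in fibrosarcoma and 3 of 6 in granuloma. The receptor Thrb and the responsive gene Thrsp were among them each time, with log2 changes of -5.74 and -7.72 in mouse. Of the Ppargc1a and Prdm16 partners, 6 of 16 fell in mouse, 3 of 16 in fibrosarcoma, near the share of all genes, and 4 of 16 in granuloma. In mouse 3 rose (Ctbp2, Kat2a and Pprc1), and Pprc1 was also the 1 that rose in each Spalax tumor type. The muscle partner Perm1 changed most in each (-5.26 in mouse, -8.05 in fibrosarcoma, -6.02 in granuloma).

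Other heat-producing cycles run on calcium in muscle and on creatine. Of 10 of their genes tested, 8 fell in Spalax fibrosarcoma, 6 in granuloma and 4 in mouse, with the calcium pump Atp2a1 and the calcium channel Ryr1 among them in all 3. Creatine genes also rose: Gatm, the first enzyme of creatine synthesis, in mouse (3.05, SE 0.84, limma adjusted p = 0.0258) and the creatine kinase Ckb in granuloma (3.44, SE 0.45, limma adjusted p = 0.0105), each the 1 gene of the list that did. Sln, whose product uncouples the calcium pump, was at 20682 to 58329 in Spalax controls and at 583, 74.3 and 68.8 in mouse controls. These values come from separate normalisations on different gene models and are set side by side without a test. Among the ELOVL and CIDE relatives, 1 rose and 1 fell of 6 in mouse, 2 rose and 1 fell of 7 in fibrosarcoma, and 4 rose of 6 in granuloma. The fat droplet gene Cidec fell in mouse (-8.75, SE 0.88, limma adjusted p = 0.00161) and in Spalax fibrosarcoma (-7.02, SE 1.05, limma adjusted p = 0.0122), and Elovl1 rose in all 3 comparisons. White and common fat markers fell for 7 of 11 in mouse, 3 of 10 in fibrosarcoma and 4 of 10 in granuloma, with no list member higher. Of the beige fat genes, 2 rose and 1 fell of 5 in mouse, 2 rose and 2 fell of 7 in fibrosarcoma, and 1 rose of 5 in granuloma. Tbx1 fell in mouse (-3.83) and Spalax fibrosarcoma (-3.81), and Hoxc9 rose in both Spalax tumor types (4.31 in fibrosarcoma and 5.51 in granuloma). Of the 5 UCP-like carriers 1 rose and 2 fell in mouse, 1 fell in fibrosarcoma, and 1 rose and 1 fell in granuloma. The adenine nucleotide carrier Slc25a4 fell in all 3 (-4.24 in mouse, -7.18 in fibrosarcoma and -6.72 in granuloma), Slc25a27 fell in mouse (-2.62), Slc25a30 rose in mouse (2.15) and Slc25a5, another adenine nucleotide carrier, rose in granuloma (2.42). Leukocyte markers rose for 5 of 11 in mouse, 8 of 10 in fibrosarcoma, where 1 fell, and 5 of 10 in granuloma. Of the 8 vascular and smooth muscle markers 2 fell in mouse, 4 in fibrosarcoma and 1 in granuloma, Myh11 each time, and 1 rose in each Spalax tumor type.

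The genes most like each uncoupling protein gene were found by Pearson's correlation of log2(normalised count + 1), a description in which the points share the contrast of tumor and muscle. Over 9 mouse libraries and 15888 genes, Ucp1 was most like Otop1 (r = 0.993), a proton channel of brown fat, then Dhrs4 (0.990), Gjb2 (0.987), Lctl (0.985) and B430212C06Rik (0.984). Over the 6 mouse libraries that are not tumors, the same genes had r between 0.971 and 0.994. Otop1 ran from 1.44 in UIS 512 to 1929 in control M1. Ucp3 was most like the muscle glycogen phosphorylase Pygm (0.996), Asb16, Sptb, Ppp1r3a and Ndrg2 in mouse. In Spalax, over 16 libraries and 15542 genes, it was most like Perm1 (0.989), LOC103743701, Fam19a3, Slc25a12 and Atg4d. Ucp2 was most like Thsd7a (0.987), RP24-88J19.4, Rab8b, Stk4 and Kif9 in mouse. In Spalax it was most like LOC103734904 (0.946), and Sdcbp, Znf710 and Asap2 were also among its 5 most like genes. Over the libraries that are not tumors, r for the Ucp3 genes fell to 0.778 to 0.929 in mouse (6 libraries) and to 0.827 to 0.903 in Spalax (12 libraries). For the Ucp2 genes named, it was then 0.825 to 0.983 in mouse and 0.825 to 0.944 in Spalax. No gene was on both lists of Ucp2 or on both lists of Ucp3.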

How the data were processed

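The authors sequenced stranded single-end RNA libraries of 101 cycles, trimmed them with Trimmomatic, aligned them with TopHat to the published Spalax genome or the NCBI mouse genome and counted genes with HTSeq; the submitters' notes list TopHat 1.4.1 and DESeq. The deposited signal values are these counts divided by 1 size factor per library, since 100% of values were whole multiples of 1 read (tolerance 0.1). Commas in 2387 Spalax names were read as a lower-case t. Members and gene lists were chosen with earlier results of these data known. Named list genes are up to 4 per list with the largest change among those called; the 5 most correlated genes were taken for each Ucp. limma 3.58.1 (R 4.3.3) was run with a trend on log2(value + 1), on genes reaching a value of 10 in at least the number of libraries of the smaller group, and Benjamini-Hochberg adjustment over all genes tested (threshold 0.05); it was checked on simulated data. A fold on this scale understates changes of low genes. edgeR 4.0.16 and DESeq2 1.42.0 were run on recovered reads as alternatives. IS and UIS with 1 number come from 1 animal, so the numbers pair libraries by design. Their deviations from group means correlated at 0.00925 in granuloma, -0.00186 in fibrosarcoma and 0.0469 to 0.178 in mouse. Each animal gave 1 library per site. Intervals of 3 reads cover counting error only. One of the genes most like an uncoupling protein gene is not reported here.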

Additional observations from a re-analysis of the deposited data

Results flagged for a closer look

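In 21 combinations of a member and a group of 4 Spalax libraries, the gap between the farthest library and its nearest neighbour was divided by the range on the log2 scale and compared with 0.829, Dixon's critical value for 4 values; the 4 UIS libraries of granuloma and fibrosarcoma animals were pooled for this, and Ucp1 was left out because its levels chose the genes. About 1 in 20 groups would pass by chance, and 3 of 21 passed. Cidea in UIS of 2230 (5053, ratio 0.874) was high, in the library with Ucp1. Ucp2 in tolerant 2251 (1542, ratio 0.943) was high, in the library whose leukocyte marker sum was 17033. Ucp3 in granuloma UIS 976 (207, ratio 0.929) was low, in the library whose muscle marker sum was 689629. Tolerant 2251, with a muscle marker sum of 751836, held Ucp3 at 1917.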

How the results depend on the processing

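Of 16 member changes given with a log2 value, 0 changed sign over 179 alternative fits, while 18 of those fits lost and 12 gained a call. A changed sign was a reason to give no log2 value, so the 0 follows from that choice and is no support. DESeq2 gave no adjusted p for Ppargc1a in mouse, and that fit is not counted. The other 34 member values tested are given without a direction, since 21 of them changed sign under at least 1 alternative. The number of members called was 2 in Spalax fibrosarcoma by limma, 5 with the animal as a replicate block and 5 with DESeq2. Leaving out 1 library gave 0 to 4 there, 0 to 2 in granuloma (2 with all libraries) and 2 to 5 in mouse (5 with all libraries). A lone library left in a group was then assumed to vary like the others, and fewer samples enter the fit. For the difference between fibrosarcoma and granuloma, DESeq2 called 1 member and limma 0; the cause was not tested. The replicate block changed no other member count. Groups of 2 limit every Spalax tumor comparison, and genes under about 3 reads, such as Spalax Elovl3, cannot be ranked.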

Other observations

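The fibrosarcoma of Spalax 2230, with 0 reads of Ucp1, Cidea and Elovl3, was set beside the fibrosarcoma of 2240 over the fat lists. Of the genes at 10 or more in either tumor, 11 of 13 brown fat genes, 7 of 13 β-adrenergic and lipolysis genes, 4 of 9 white and common fat markers and 2 of 5 beige fat genes were higher in 2230, beside 50.1% of all genes; 9 of 10 leukocyte markers were too. The comparison was noticed after the values were seen and rests on 1 library each, with no test. Prkar2b was at 1644 against 220, Pparg at 360 against 16.0, Cebpa at 486 against 91.0, Otop1 at 79.8 against 0 and Ffar4 at 34.2 against 1.84. Adipoq (0.60 against 1.84) and Plin1 (1.80 against 0) were near 0 in both, and Lpl (52.8 against 2586), Zic1 (278 against 419) and Shox2 (180.5 against 411) ran the other way.

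Granuloma UIS 976 and tolerant 2375 shared high levels of Plin5 (5866 and 6219, against 561 to 2197 in the other 10 Spalax libraries that are not tumors) and of the lipase Pnpla2 (20070 and 19654, against 2130 to 5518). Ppargc1a was 7355 in the first and 373 in the second, and Ucp3 was 207 and 13998.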
